A study of Mus musculus with 9 samples.

Results

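Transcript levels of the MARCKS family and of protein kinase C isoforms were compared between SCC2, SCC1 and LLC1 tumour cells of the mouse. The members were 7 genes taken from the table by symbol, Marcks, Marcksl1, Prkca, Prkcd, Prkce, Prkci and Prkcz, out of 15768 symbols in all, and all 7 were found. They were chosen by their FPKM in these same libraries, with the results of all 3 comparisons in view, so their levels and differences are given as a description without a test. SCC2 and SCC1 are subclones of LLC1 obtained by limiting dilution, so each is 1 clone, and they were grown under the same conditions for 5 to 8 passages before use. LLC1 is the parental Lewis lung carcinoma line. All 3 lines were labelled as wild type, untreated tumour cells from lung, in medium with 10% serum, with 3 libraries each. No label says whether the 3 libraries of each line are separate cultures. A p-value here therefore reflects variation among libraries that could be purely technical.

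MARCKS is a myristoylated, alanine-rich protein that sits on the inner face of the plasma membrane, where a short basic domain holds phosphatidylinositol bisphosphate, calmodulin and actin filaments. Protein kinase C phosphorylates serines within that domain, and MARCKS then leaves the membrane and releases what it held. The conventional kinases, such as the product of Prkca, need calcium and diacylglycerol, the new-type kinases of Prkcd and Prkce need diacylglycerol alone, and the atypical kinases of Prkci and Prkcz respond to neither and act with the Par polarity proteins.

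Levels are FPKM, the fragments of a gene scaled for its length and for sequencing depth. Whole fragments worked back from these values numbered 17094808 to 19398657 per library. Levels are given as mean ± SD (n = 3 libraries of each line). Log2 changes were computed after adding 1 to each FPKM, which understates the change of a low gene. Among 11 lung epithelial markers Krt8 and Krt18 were present in every line, while Nkx2-1, Sftpc, Foxj1 and Cdh1 stayed under 1 FPKM in all 9 libraries. The other 5, Sftpa1, Sftpb, Sftpd, Scgb1a1 and Epcam, had no entry under these symbols. In bulk RNA, fewer cells that express a gene and less of its RNA per cell cannot be told apart.

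Promoter sequence from the RefSeq table of build GRCm38.p6 was found for 5 of the 7 members, with none there for Marcks and Prkce. The 250 bases before the start are shown for Marcksl1, the member with the highest FPKM in SCC1 and LLC1. They are also shown for the first of 3 listed starts of Prkcz, the member with the lowest ratio of SCC1 over LLC1. Capitals mark CCAAT (written ATTGG on the other strand) and GGGCGG (written CCGCCC on the other strand). The Marcksl1 window is chr4:129513331-129513580 on the plus strand and that of Prkcz is chr4:155361429-155361678 on the minus strand.
Marcksl1: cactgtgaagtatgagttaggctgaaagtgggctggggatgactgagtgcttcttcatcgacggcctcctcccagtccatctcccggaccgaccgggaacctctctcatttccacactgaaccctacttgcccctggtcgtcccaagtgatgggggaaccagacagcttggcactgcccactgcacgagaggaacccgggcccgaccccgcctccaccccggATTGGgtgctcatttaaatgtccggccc
Prkcz: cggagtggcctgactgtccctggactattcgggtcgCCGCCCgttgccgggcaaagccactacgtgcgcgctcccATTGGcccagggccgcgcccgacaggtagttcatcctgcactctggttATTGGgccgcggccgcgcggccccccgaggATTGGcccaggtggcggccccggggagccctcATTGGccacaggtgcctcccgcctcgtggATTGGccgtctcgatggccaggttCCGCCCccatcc
The Prkcz window held 5 matches to CCAAT, a count reached by 0.213% of the 32841 listed mouse starts, and 2 to GGGCGG, a count reached by 16.7%. The Marcksl1 window held 1 match to CCAAT, and 33.9% of starts held at least 1. It held 0 matches to GGGCGG, which 32.7% of starts held. The motifs were searched on both strands, the matches did not overlap, and TATAAA, held by 12.4% of starts, was in neither window. The dinucleotide CG occurred 25 times in the Prkcz window and 12 times in that of Marcksl1, against a median of 6 over all starts. These are descriptions of the letters and no factor was measured.

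Marcks, the founding member of the family (chromosome 10, 37133243 to 37138926, minus strand, GRCm38.p6), was the member that differed most among those above 1 FPKM in some line. SCC2 libraries had 0.739, 0.717 and 0.725 FPKM, SCC1 libraries had 6.27, 6.27 and 6.56 FPKM, and LLC1 libraries had 0.204, 0.25 and 0.195 FPKM. The SCC1 libraries stood above all others, the SCC2 libraries lay between, and no 2 lines overlapped. These levels rested on 56, 56 and 56 fragments in SCC2, on 510, 487 and 502 in SCC1 and on 16, 19 and 14 in LLC1.

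The mean Marcks level was 6.37 ± 0.166 FPKM in SCC1 and 0.217 ± 0.029 FPKM in LLC1, a ratio of 29.4, with a 95% exact counting interval of 22.1 to 39.9. SCC2 averaged 0.727 ± 0.0115 FPKM, which was 3.36 times the LLC1 mean (interval 2.43 to 4.71) and 0.114 of the SCC1 mean (interval 0.0967 to 0.134). Such intervals cover counting error only and take each fragment as 1 molecule, although PCR copies are not independent. The log2 change of Marcks was 2.60 (SE 0.0447) in SCC1 against LLC1, 0.51 (SE 0.0447) in SCC2 against LLC1 and -2.09 (SE 0.0447) in SCC2 against SCC1. Because the gene is low in SCC2 and LLC1, these sizes depend on the pseudocount: with 0.1 in place of 1 they were 4.36, 1.39 and -2.97, and in a limma-voom fit of whole fragments 4.84, 1.72 and -3.12.

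Marcksl1, which encodes the smaller MARCKS-like protein with a similar basic domain (chromosome 4, 129513581 to 129515981, plus strand), was the more abundant of the pair in every library. SCC2 libraries had 23.6, 25.9 and 25.4 FPKM, SCC1 libraries had 48.5, 49.2 and 50.7 FPKM, and LLC1 libraries had 45.1, 44.2 and 44 FPKM. SCC2 was the low line, and the 3 lines did not overlap. The mean of 25 ± 1.19 FPKM in SCC2 was 0.562 of that in LLC1 (44.5 ± 0.601 FPKM) and 0.505 of that in SCC1 (49.5 ± 1.1 FPKM), with log2 changes of -0.81 and -0.96 (SE 0.0324 each). SCC1 was 1.11 times LLC1, a log2 change of 0.15 (SE 0.0324). Processed copies of Marcksl1 are annotated elsewhere in the mouse genome, so the share of its reads that belongs to such copies is uncertain.

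The make-up of the pair differed between lines. Per length, Marcks made up 2.83 ± 0.178% of the summed level of both genes in SCC2, 11.4 ± 0.0911% in SCC1 and 0.485 ± 0.0665% in LLC1. The summed level was 25.7 ± 1.18 FPKM in SCC2, 55.8 ± 1.26 FPKM in SCC1 and 44.7 ± 0.596 FPKM in LLC1. SCC1 thus had both the highest sum and the highest share of Marcks.

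**Figure D1:**
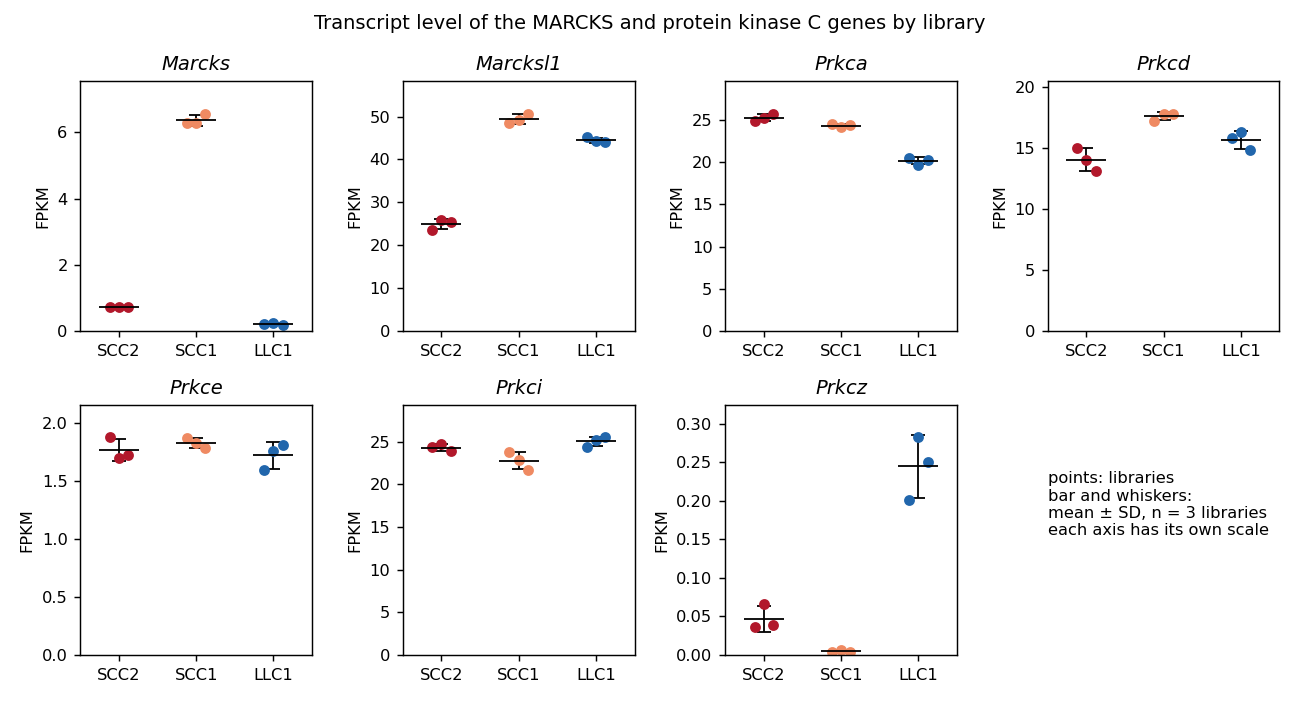
FPKM of the 7 members in each library of SCC2, SCC1 and LLC1 (points), with the mean and SD of 3 libraries; each panel has its own linear axis from 0. Marcks stands at 6.27 to 6.56 in SCC1 and under 1 in the other lines, Marcksl1 is lowest in SCC2, Prkce overlaps between all lines, and Prkcz is highest in LLC1.

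Prkca, the gene of the conventional calcium-dependent isoform (chromosome 11, 107933387 to 108343888, minus strand), was higher in both subclones than in the parent. SCC2 libraries had 24.9, 25.2 and 25.7 FPKM, SCC1 libraries had 24.5, 24.1 and 24.4 FPKM, and LLC1 libraries had 20.5, 19.7 and 20.2 FPKM. Both subclones lay above LLC1 without overlap, and SCC2 lay just above SCC1. The SCC2 mean was 1.25 times and the SCC1 mean 1.21 times that of LLC1, with log2 changes of 0.31 and 0.26 (SE 0.0257 each), and SCC2 differed from SCC1 by 0.05 (SE 0.0257). Apoh, which overlaps Prkca on the other strand, had 0.533 ± 0.136 FPKM in SCC2, 0.524 ± 0.101 FPKM in SCC1 and 0.622 ± 0.077 FPKM in LLC1. Use of strand in the counting is not given, so reads of such overlapping genes cannot be told apart, and genes on the other strand also overlap Prkce and Prkcz.

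Prkcd, the gene of a new-type isoform known for roles in apoptosis (chromosome 14, 30595353 to 30626414, minus strand), had 15, 14 and 13.2 FPKM in SCC2 libraries, 17.3, 17.8 and 17.8 FPKM in SCC1 libraries and 15.9, 16.4 and 14.9 FPKM in LLC1 libraries. SCC1 was the high line and overlapped with neither of the others, while SCC2 and LLC1 overlapped. The log2 change was 0.16 in SCC1 against LLC1, -0.15 in SCC2 against LLC1 and -0.31 in SCC2 against SCC1 (SE 0.0458 each).

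Prkce, the gene of the other new-type isoform measured above 1 FPKM (chromosome 17, 86167785 to 86657919, plus strand), had 1.87, 1.7 and 1.72 FPKM in SCC2 libraries, 1.87, 1.83 and 1.78 FPKM in SCC1 libraries and 1.59, 1.76 and 1.81 FPKM in LLC1 libraries. All 3 lines overlapped. The ratios of means were 1.03 for SCC2 over LLC1, with a counting interval of 0.932 to 1.13, and 1.06 for SCC1 over LLC1, with an interval of 0.968 to 1.17.

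Prkci, the gene of the atypical isoform of the Par complex (chromosome 3, 30995742 to 31052740, plus strand), was among the most abundant isoforms in every line. SCC2 libraries had 24.4, 24.7 and 23.9 FPKM, SCC1 libraries had 23.7, 22.9 and 21.7 FPKM, and LLC1 libraries had 24.4, 25.1 and 25.5 FPKM. SCC1 was the low line and lay below both others without overlap, while SCC2 and LLC1 overlapped. SCC1 was 0.91 of LLC1, a log2 change of -0.13 (SE 0.033), and SCC2 was 0.971 of LLC1, a log2 change of -0.04 (SE 0.033). SCC2 was 1.07 times SCC1, a log2 change of 0.09 (SE 0.033).

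Prkcz, the gene of the second atypical isoform (chromosome 4, 155260118 to 155361428, minus strand), was low throughout and did not reach the 1 FPKM needed for the fit across genes. SCC2 libraries had 0.0359, 0.0661 and 0.0387 FPKM from 10, 19 and 11 fragments, SCC1 libraries had 0.00335, 0.00701 and 0.00355 FPKM from 1, 2 and 1 fragments, and LLC1 libraries had 0.202, 0.282 and 0.251 FPKM from 58, 79 and 66 fragments. LLC1 was the high line, SCC2 lay between, and each SCC1 library was below the level of 3 fragments, which equalled 0.01 to 0.0114 FPKM. Per depth, the fragments of SCC1 were 0.0189 of those of LLC1 (95% exact counting interval 0.0051 to 0.0492) and those of SCC2 were 0.193 of LLC1 (interval 0.134 to 0.271). SCC2 had 10.2 times the fragments of SCC1, with an interval of 3.68 to 39.2. The 2 atypical isoforms thus had unlike levels, with Prkci above 21 FPKM in every library and Prkcz below 0.3 FPKM.

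Of the 7 members 6 could be tested in the fit across 10519 genes, and Marcks entered it through SCC1 alone, so its difference there was set by the filter. An adjusted p under 0.05 was reached by 4 of these 6 in SCC2 against LLC1 (67.6% of all genes tested), 2 higher (34.7%) and 2 lower (32.9%). For SCC1 against LLC1 the number was 5 of 6 (70.1%), with 4 above LLC1 (39.2%) and 1 below it (30.9%), and for SCC2 against SCC1 it was 4 of 6 (76.3%), with 1 higher (37%) and 3 lower (39.4%). The lines did not overlap for 3 of 6 in SCC2 against LLC1 (70.7% of all genes), for 5 of 6 in SCC1 against LLC1 (72.3%) and for 5 of 6 in SCC2 against SCC1 (77.9%). As the choice of members used these comparisons, nothing is read from these counts. The comparisons share libraries and are not independent of each other.

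Summed over isoforms, the levels of the lines lay within a narrow range. The 7 isoforms reported here summed to 65.5 ± 0.841 FPKM in SCC2, 66.7 ± 0.819 FPKM in SCC1 and 63 ± 0.362 FPKM in LLC1. Prkca, Prkci and Prkcd together gave 97.2% of this sum in SCC2, 97% in SCC1 and 96.6% in LLC1. Prkca made up 38.6 ± 1.14% of it in SCC2, 36.4 ± 0.495% in SCC1 and 32 ± 0.866% in LLC1, while Prkci made up 37.1 ± 0.404% in SCC2, 34.1 ± 1.1% in SCC1 and 39.7 ± 0.828% in LLC1. By mean FPKM Prkca therefore stood first in both subclones and Prkci in LLC1. Such an order of different genes rests on the length taken for each. In whole fragments Prkca was above Prkci in every line, with 11738 against 6028 in SCC2, 11508 against 5761 in SCC1 and 9150 against 6065 in LLC1. By FPKM the libraries of the 2 genes did not overlap within any line, and they were closest in SCC2. Prkcd made up 21.5 ± 1.16% in SCC2, 26.4 ± 0.769% in SCC1 and 24.9 ± 1.09% in LLC1.

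Prkcb and Prkch were rare. Prkcb, a conventional isoform of lymphoid and other cells, had 0.0271 ± 0.0143 FPKM in SCC2, 0.178 ± 0.0188 FPKM in SCC1 and 0.154 ± 0.03 FPKM in LLC1. Its SCC2 libraries lay below the others, with 15 fragments in SCC2, 100 in SCC1 and 83 in LLC1, whereas SCC1 and LLC1 overlapped. Prkch had 2 fragments in SCC2, 1 in SCC1 and 2 in LLC1, which is under 3 fragments in each line, and Prkcq had no entry under this symbol.

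**Figure D2:**
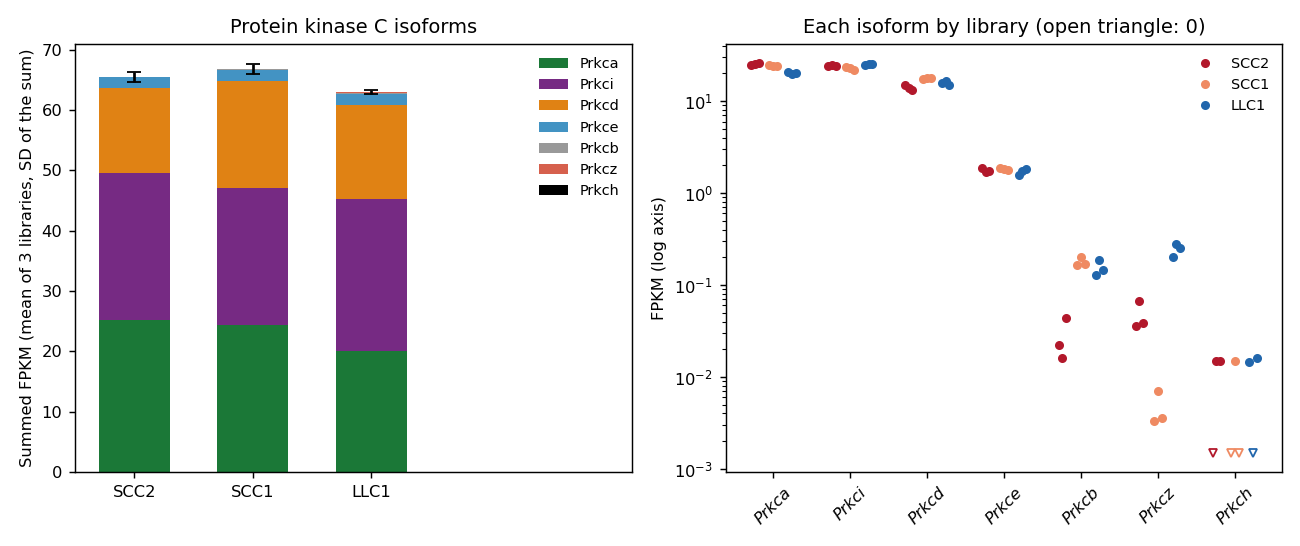
Left, mean FPKM of 7 protein kinase C isoforms stacked by line (n = 3 libraries, whiskers are the SD of the sum). Right, FPKM of each isoform in each library on a log axis, with open triangles for libraries at 0. The stacks reach 65.5 in SCC2, 66.7 in SCC1 and 63 in LLC1, and the lines separate most for Prkcz and Prkcb at the low end.

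Other genes of the pathway came from 13 lists by role, which held 120 genes that are not members, 114 of them in the table and 84 of them tested. Of these 84, limma called 28 higher and 38 lower in SCC2 against LLC1 (78.6%, against 67.6% of all genes), 33 higher and 29 lower in SCC1 against LLC1 (73.8%, against 70.1%) and 30 higher and 40 lower in SCC2 against SCC1 (83.3%, against 76.3%). Their median log2 change was -0.04 in SCC2 against LLC1, 0.02 in SCC1 against LLC1 and -0.04 in SCC2 against SCC1, beside 0.0075, 0.03 and -0.0029 over all genes tested. Adjusted p-values given for them are from limma, corrected by Benjamini-Hochberg across the 10519 genes.

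Of 4 tested proteins akin to MARCKS, 2 rose and 2 fell in SCC2 against LLC1, 1 rose and 1 fell in SCC1 against LLC1, and 2 were higher and 1 lower in SCC2 against SCC1. Basp1, a membrane protein that binds calmodulin and phosphatidylinositol bisphosphate as MARCKS does, had 0.953, 1.96 and 1.11 FPKM in SCC2 libraries, 0.0555, 0 and 0.0295 FPKM in SCC1 libraries and 2.19, 2.08 and 2.65 FPKM in LLC1 libraries. It passed the filter through LLC1, where it is high, since 2 SCC2 libraries and 0 SCC1 libraries reached 1 FPKM. The log2 change against LLC1 was -1.68 in SCC1 (SE 0.127, adjusted p = 3.02e-07) and -0.52 in SCC2 (SE 0.127, adjusted p = 0.00347), and the value in SCC1 ran from -6.02 to -1.47 over alternatives. The 3 fragments of SCC1 were 0.0125 of the 230 of LLC1 per depth, with a counting interval of 0.00256 to 0.037. Basp1 thus stood at its lowest in the line where Marcks stood at its highest.

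Add2, an adducin with a MARCKS-related domain that caps actin at the membrane skeleton, had 0.111 ± 0.0101 FPKM in SCC2, 1.6 ± 0.0753 FPKM in SCC1 and 0.585 ± 0.038 FPKM in LLC1. It was higher in SCC1 (log2 change 0.71, adjusted p = 1.43e-07) and lower in SCC2 (-0.51, adjusted p = 2.70e-06) than in LLC1, although it passed the filter through SCC1 alone and the sign in SCC2 against LLC1 turned with quantile normalization (0.02, adjusted p = 0.723, from 7.52e-19 to 0.723 over alternatives). The widely expressed Add1 had 55.6 ± 0.203 FPKM in SCC2, 50.4 ± 1.7 FPKM in SCC1 and 49 ± 0.107 FPKM in LLC1, and rose in SCC2 (log2 change 0.18, adjusted p = 3.99e-05; adjusted p = 0.144 for SCC1 against LLC1). Gap43 and Nrgn, neuronal proteins of the same kind, were under the filter, with 0 fragments each in SCC2, 2 and 0 in SCC1 and 22 and 14 in LLC1.

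Of 5 tested kinases related to protein kinase C, 1 rose and 3 fell in SCC2 against LLC1, 1 rose and 2 fell in SCC1 against LLC1, and 1 was higher and 1 lower in SCC2 against SCC1. Prkd3, a protein kinase D activated by protein kinase C, had 20 ± 0.445 FPKM in SCC2, 20.6 ± 0.717 FPKM in SCC1 and 24.1 ± 0.778 FPKM in LLC1, and fell in SCC2 (log2 change -0.26, adjusted p = 3.29e-05) and in SCC1 (-0.22, adjusted p = 0.000113). Prkd2 fell in SCC2 (-0.19, adjusted p = 0.00217) and more in SCC1 (-0.39, adjusted p = 9.67e-06), and SCC2 was above SCC1 (0.19, adjusted p = 0.00166). Prkd1, under the filter, had 0.518, 0.588 and 0.508 FPKM in SCC2 libraries, 0, 0.0108 and 0 FPKM in SCC1 libraries and 0.0213, 0.0549 and 0.07 FPKM in LLC1 libraries. Its 149 fragments in SCC2 were 11.2 times the 13 of LLC1 per depth, with a counting interval of 6.36 to 21.5.

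Pkn2, a kinase related to protein kinase C by its catalytic domain, had 18.6 ± 0.0725 FPKM in SCC2, 18.7 ± 0.311 FPKM in SCC1 and 18.9 ± 0.194 FPKM in LLC1 (adjusted p = 0.47 for SCC2 and adjusted p = 0.694 for SCC1). Pkn3 had 9.5 ± 0.743 FPKM in SCC2, 10.5 ± 0.608 FPKM in SCC1 and 10.5 ± 0.463 FPKM in LLC1, and its calls in SCC2 against LLC1 (adjusted p = 0.0469, from 0.00757 to 0.199 over alternatives) and against SCC1 (adjusted p = 0.0488, from 0.00808 to 0.214) were lost in 8 and 9 of 15 alternatives.

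Phospholipases C make diacylglycerol and diacylglycerol kinases remove it. Of 6 tested phospholipases C, 2 rose and 4 fell in SCC2 against LLC1, 2 rose and 1 fell in SCC1 against LLC1, and 1 was higher and 5 lower in SCC2 against SCC1. Plcg1, the form activated by receptor tyrosine kinases, had 19.7 ± 0.397 FPKM in SCC2, 30.4 ± 0.33 FPKM in SCC1 and 25.7 ± 0.204 FPKM in LLC1, with log2 changes against LLC1 of -0.36 in SCC2 (adjusted p = 1.29e-07) and 0.23 in SCC1 (adjusted p = 4.36e-06). Plcg2, the form typical of blood cells, had 1.32 ± 0.165 FPKM in SCC2, 1.95 ± 0.122 FPKM in SCC1 and 0.643 ± 0.0238 FPKM in LLC1, and rose in SCC2 (0.50, adjusted p = 1.64e-05) and in SCC1 (0.84, adjusted p = 1.68e-07), having passed the filter through the subclones alone. Plcb3, a target of G proteins, fell in SCC2 (-0.29, adjusted p = 1.31e-06) and in SCC1 (-0.08, adjusted p = 0.0161), and its call in SCC1 was lost without SCC1 replicate 2 (adjusted p = 0.0578, from 0.00129 to 0.0578 over alternatives).

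Of 5 tested diacylglycerol kinases, 0 rose and 1 fell in SCC2 against LLC1, 3 rose and 0 fell in SCC1 against LLC1, and 0 were higher and 3 lower in SCC2 against SCC1. Dgka had 3.25 ± 0.192 FPKM in SCC2, 4.28 ± 0.312 FPKM in SCC1 and 4.51 ± 0.0546 FPKM in LLC1, and fell in SCC2 (log2 change -0.38, adjusted p = 4.55e-05). Dgke rose in SCC1 (0.26, adjusted p = 0.00123), with 2.98 ± 0.142 FPKM in SCC2, 4.07 ± 0.33 FPKM in SCC1 and 3.21 ± 0.184 FPKM in LLC1. Dgkz rose in SCC1 against LLC1 (0.11, adjusted p = 0.0118), and its lower level in SCC2 than in SCC1 (-0.09, adjusted p = 0.042, from 0.00641 to 0.117 over alternatives) was lost as a call in 9 of 15 alternatives.

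Kinases that make phosphatidylinositol bisphosphate, the lipid that MARCKS holds, included Pip5k1b, with the highest log2 changes against LLC1 among the 84. Of 6 tested, 3 rose and 2 fell in SCC2 against LLC1, 3 rose and 2 fell in SCC1 against LLC1, and 3 were higher and 3 lower in SCC2 against SCC1. Pip5k1b had 3.62, 3.14 and 3.45 FPKM in SCC2 libraries, 2.66, 2.69 and 2.33 FPKM in SCC1 libraries and 0.936, 0.781 and 1.11 FPKM in LLC1 libraries. It passed the filter through the subclones, where it is high, since 1 LLC1 library reached 1 FPKM. The log2 changes against LLC1 were 1.18 in SCC2 (SE 0.0697, adjusted p = 4.44e-08) and 0.88 in SCC1 (SE 0.0697, adjusted p = 4.64e-07). Pip5k1c, the form of focal adhesions and synapses, had 51.6 ± 1.28 FPKM in SCC2, 35.6 ± 0.489 FPKM in SCC1 and 49.3 ± 1.12 FPKM in LLC1, and fell in SCC1 (-0.46, adjusted p = 2.05e-08). Its difference in SCC2 against LLC1 (0.06, adjusted p = 0.0464, from 0.0113 to 0.321 over alternatives) was lost as a call in 10 of 15. Pip4k2a fell in SCC2 (-0.19, adjusted p = 0.00083) and rose in SCC1 (0.19, adjusted p = 0.00092).

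Calmodulin, which binds the basic domain of MARCKS and competes with the kinase for it, is made from several genes that encode the same protein. Of 5 tested genes for calmodulin and myristoylation, 2 rose and 3 fell in SCC2 against LLC1, 2 rose and 1 fell in SCC1 against LLC1, and 1 was higher and 4 lower in SCC2 against SCC1. Calm3, a calmodulin gene, had 160 ± 3.28 FPKM in SCC2, 119 ± 1.32 FPKM in SCC1 and 145 ± 5.18 FPKM in LLC1, and fell in SCC1 (log2 change -0.28, adjusted p = 1.34e-06). Nmt2, an enzyme that attaches myristate to proteins such as MARCKS, had 108 ± 0.922 FPKM in SCC2, 134 ± 0.895 FPKM in SCC1 and 134 ± 0.838 FPKM in LLC1, and fell in SCC2 (-0.30, adjusted p = 1.59e-08), while SCC1 against LLC1 gave a log2 change of 0.0031 (adjusted p = 0.871).

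Genes for the priming and turnover of protein kinase C had 13 tested members, of which 3 rose and 6 fell in SCC2 against LLC1, 6 rose and 5 fell in SCC1 against LLC1, and 3 were higher and 5 lower in SCC2 against SCC1. Phlpp1, a phosphatase that removes the activating phosphate of the kinases, had 16.6 ± 0.444 FPKM in SCC2, 9.96 ± 0.0825 FPKM in SCC1 and 15.2 ± 0.275 FPKM in LLC1, and fell in SCC1 (log2 change -0.56, adjusted p = 1.44e-08). Rictor, a subunit of the mTOR complex that phosphorylates conventional isoforms, had 8.59 ± 0.222 FPKM in SCC2, 12.5 ± 0.239 FPKM in SCC1 and 12 ± 0.0985 FPKM in LLC1, and fell in SCC2 (-0.44, adjusted p = 1.71e-07). Hsp90aa1, a chaperone of many kinases, rose in SCC1 (0.37, adjusted p = 2.67e-08) and fell slightly in SCC2 (-0.08, adjusted p = 0.00695).

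The partners of atypical isoforms had 10 tested members, of which 4 rose and 3 fell in SCC2 against LLC1, 4 rose and 3 fell in SCC1 against LLC1, and 4 were higher and 5 lower in SCC2 against SCC1. Cdc42, the GTPase that activates the Par complex, had 26 ± 0.672 FPKM in SCC2, 16.4 ± 0.172 FPKM in SCC1 and 23 ± 0.414 FPKM in LLC1, and fell in SCC1 (log2 change -0.46, adjusted p = 3.67e-08). Pard6g, an adaptor that links Cdc42 to the kinase, had 2.23 ± 0.103 FPKM in SCC2, 4.44 ± 0.364 FPKM in SCC1 and 2.51 ± 0.126 FPKM in LLC1, and rose in SCC1 (0.63, adjusted p = 1.02e-06). Sqstm1, the p62 scaffold that binds atypical isoforms, rose in SCC2 (0.29, adjusted p = 5.23e-08) and in SCC1 (0.52, adjusted p = 3.30e-10).

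Of 11 tested anchors of protein kinase C, 1 rose and 8 fell in SCC2 against LLC1, 4 rose and 6 fell in SCC1 against LLC1, and 3 were higher and 7 lower in SCC2 against SCC1, with medians of -0.16, -0.06 and -0.17. Over all genes tested, 34.7% were called higher and 32.9% lower in SCC2 against LLC1, 39.2% and 30.9% in SCC1 against LLC1, and 37% and 39.4% in SCC2 against SCC1. The same shares are the background for the counts of the other roles. Without SCC2 replicate 1 the anchors called lower in SCC2 against LLC1 were 6, and without SCC2 replicate 2 they were 7. Cavin2, a caveolar protein that binds protein kinase C, had 89.4 ± 0.841 FPKM in SCC2, 112 ± 3.42 FPKM in SCC1 and 163 ± 2.37 FPKM in LLC1, and fell in SCC2 (log2 change -0.86, adjusted p = 8.60e-11) and in SCC1 (-0.53, adjusted p = 2.44e-09). The related Cavin3, a binding protein of the new-type isoform of Prkcd, rose in SCC2 (0.40, adjusted p = 2.37e-07) and fell in SCC1 (-0.28, adjusted p = 4.11e-06). Rack1, a ribosomal scaffold also known as a receptor of activated protein kinase C, had 1298 ± 3.07 FPKM in SCC2, 1716 ± 14.2 FPKM in SCC1 and 1451 ± 17.2 FPKM in LLC1.

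Of the other diacylglycerol receptors only Unc13a, a regulator of vesicle release, was tested, and it rose in SCC2 (log2 change 0.15, adjusted p = 0.00819) and in SCC1 (0.40, adjusted p = 6.01e-06).

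Of 11 tested substrates of the kinases outside the MARCKS family, 6 rose and 4 fell in SCC2 against LLC1, 3 rose and 5 fell in SCC1 against LLC1, and 8 were higher and 2 lower in SCC2 against SCC1. Ezr, which encodes the membrane-actin linker ezrin, had 77.6, 76.9 and 75.2 FPKM in SCC2 libraries, 140, 141 and 140 FPKM in SCC1 libraries and 85.7, 86.7 and 83.2 FPKM in LLC1 libraries. It rose in SCC1 (log2 change 0.71, SE 0.0204, adjusted p = 9.51e-11) and fell in SCC2 (-0.15, SE 0.0204, adjusted p = 4.06e-05), so the subclones lay on opposite sides of the parent. Vcl, the focal adhesion protein vinculin, fell in SCC2 (-0.55, adjusted p = 3.81e-09) and in SCC1 (-0.27, adjusted p = 9.57e-07). Hmgn1, a nucleosome-binding protein, rose in SCC2 (0.16, adjusted p = 1.38e-05) and fell in SCC1 (-0.25, adjusted p = 3.13e-07).

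Of 7 tested genes of actin and of phosphatases that act on MARCKS, 3 rose and 2 fell in SCC2 against LLC1, 3 rose and 3 fell in SCC1 against LLC1, and 4 were higher and 3 lower in SCC2 against SCC1. Cytoplasmic actin Actg1 had 442 ± 6.21 FPKM in SCC2, 573 ± 3.82 FPKM in SCC1 and 513 ± 2.93 FPKM in LLC1, and fell in SCC2 (log2 change -0.21, adjusted p = 1.91e-07) and rose in SCC1 (0.16, adjusted p = 1.88e-06). The catalytic subunits Ppp1ca and Ppp1cb of protein phosphatase 1 rose in SCC2, by 0.27 (adjusted p = 4.28e-07) and 0.20 (adjusted p = 4.70e-06).

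**Figure D3:**
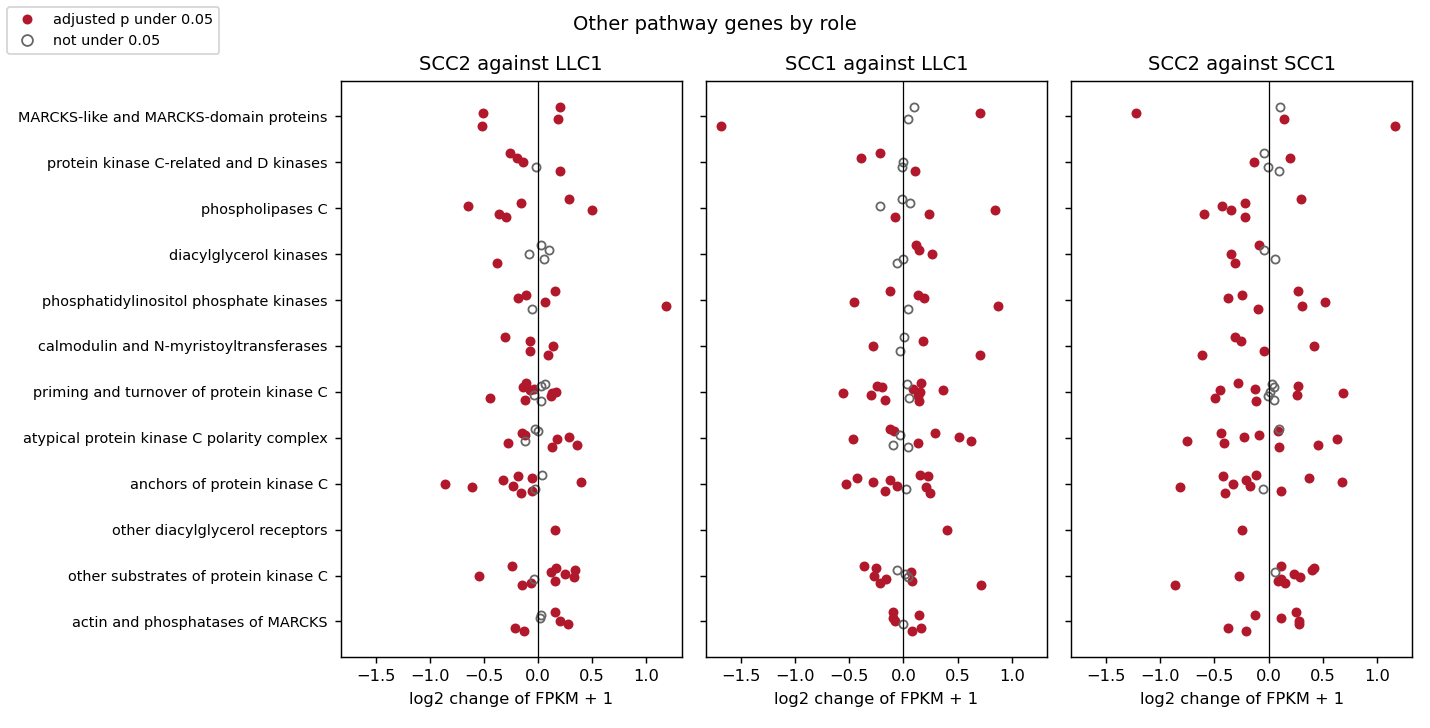
Log2 change of FPKM + 1 for each tested pathway gene that is not a member, by role, in SCC2 against LLC1, SCC1 against LLC1 and SCC2 against SCC1; filled points passed a limma adjusted p of 0.05. Points lie on both sides of 0 in most roles. Of the 11 anchors, 1 of 13 lists, 8 fell in SCC2 against LLC1, where 32.9% of all genes tested were called lower. Without SCC2 replicate 1 the count was 6, and without SCC2 replicate 2 it was 7.

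The genes with a pattern most like that of Marcks were named by Pearson correlation of log2(FPKM + 1) over the 9 libraries, among 281 tested genes with a line mean of at least 5 FPKM and line means at least 1 apart on the log2 scale. As the 9 libraries fall into 3 lines, such a value describes little more than the order and spacing of 3 levels. Highest were Trpa1, a calcium-permeable channel (r = 0.996), Mctp2, a membrane protein with calcium-binding C2 domains (0.992), Areg, the growth factor amphiregulin (0.985), Tnfrsf21, death receptor 6 (0.978), Smox, spermine oxidase (0.977), and Ccbe1, a secreted factor of lymphatic growth (0.975). Trpa1 had 7.16 ± 0.346 FPKM in SCC2, 15.2 ± 0.378 FPKM in SCC1 and 5.76 ± 0.284 FPKM in LLC1. Its libraries were highest in SCC1, as those of Marcks were. The means of Trpa1, Mctp2, Areg and Ccbe1 were higher in SCC2 than in LLC1, as for Marcks. Those of Tnfrsf21 (5.6 in SCC2 and 5.69 FPKM in LLC1) and Smox (9.99 and 10.2 FPKM) were not. Adding 1 to each FPKM shrinks the gap of Marcks between SCC2 and LLC1 in these correlations. For Marcksl1 the genes were Nme4, a mitochondrial nucleoside diphosphate kinase (0.997), Tmem37 (0.996) and Slc48a1, a heme transporter (0.995), and Slc48a1 had 28.9 ± 0.133 FPKM in SCC2, 90.6 ± 2.69 FPKM in SCC1 and 70.6 ± 0.513 FPKM in LLC1.

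**Figure D4:**
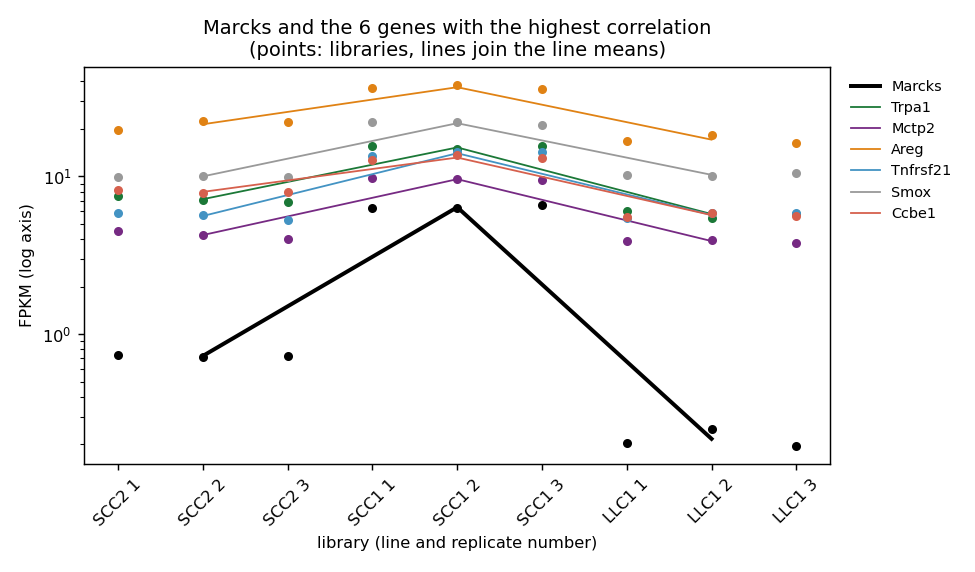
FPKM on a log axis for Marcks (black) and the 6 genes that correlate best with it, in each library (points), with lines joining the means of SCC2, SCC1 and LLC1. All 7 are highest in SCC1, and Marcks has the widest range, from 0.195 to 6.56.

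Marcks is also abundant in macrophages and neural cells, so markers of other cells were measured beside it. Of 12 macrophage and leukocyte markers 7 were found and 3 reached 1 FPKM in any library, namely Cd68, Cd14 and Mrc1. Ptprc, Adgre1, Itgam, C1qa and C1qb had no entry under these symbols. The summed level of the 7 ran from 18.8 to 19.3 FPKM in SCC2, from 28.1 to 32.1 FPKM in SCC1 and from 15.9 to 17.3 FPKM in LLC1. Cd68 had 3.05 ± 0.236 FPKM in SCC2, 9.14 ± 1.1 FPKM in SCC1 and 4.11 ± 0.351 FPKM in LLC1, and Mrc1 had 0.235 ± 0.0323 FPKM in SCC2, 2.11 ± 0.195 FPKM in SCC1 and 0.267 ± 0.0504 FPKM in LLC1. Both were highest in SCC1, as Marcks was, and so was Cd14, with 15.6 ± 0.248 FPKM in SCC2, 18.4 ± 0.932 FPKM in SCC1 and 12 ± 0.771 FPKM in LLC1. Of the other markers, Csf1r had 0 ± 0 FPKM in SCC2, 0.0182 ± 0.00726 FPKM in SCC1 and 0.0046 ± 0.00797 FPKM in LLC1, and Cx3cr1, Fcgr1 and Lyz2 stayed under 1 FPKM in all 9 libraries. Of 9 neuron and glia markers 6 were found and 4 reached 1 FPKM, while Rbfox3, Aqp4 and Olig2 had no entry under these symbols. The summed levels of the 6 were 6.28 to 6.5 FPKM in SCC2, 15.2 to 15.3 FPKM in SCC1 and 9.06 to 9.76 FPKM in LLC1. Snap25 had 0.461 ± 0.128 FPKM in SCC2, 6.65 ± 0.347 FPKM in SCC1 and 1.52 ± 0.196 FPKM in LLC1. The part of these genes in the Marcks difference was not tested.

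The 2 of 8 lymphocyte markers that were found summed to at most 0.318 FPKM in any library. The 4 of 6 endothelial markers that were found summed to at most 0.096 FPKM. The 7 fibroblast markers summed to 692 to 714 FPKM in SCC2, 258 to 269 FPKM in SCC1 and 572 to 599 FPKM in LLC1. Nearly all of this was Col3a1, with means of 699, 257 and 575 FPKM in that order, and the other markers did not share 1 order. Pdgfra (3.04, 3.35 and 5.18 FPKM) and Dcn (2.1, 2.34 and 3.02 FPKM) were highest in LLC1, and Lum (0.994, 0.0865 and 0.725 FPKM) in SCC2. Col1a1, Col1a2 and Pdgfrb stayed under 1 FPKM in all 9 libraries.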

How the data were processed

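RNA-seq of 9 libraries was used. The deposited values are FPKM, computed by the authors with cufflinks after Trimmomatic trimming and hisat2 alignment of 150 bp paired reads, per the labels and the series' design text. GRCm38 and mm10 are the builds in the submitters' processing notes, while tool versions, annotation and strand setting were not stated in any label or header read. The labels' protocols name a SMARTER kit and the design text a TruSeq stranded kit. Ratios of a gene's FPKM between libraries gave the smallest whole fragments, within 0.001 fragments, for all 12270 genes above 0 in every library. A factor shared by all 9 libraries of a gene would be missed. Genes with at least 1 FPKM in at least 3 libraries (10519) were tested on log2(FPKM + 1) with limma 3.58.1 in R 4.3.3 (trend and robust options, line as the only factor), two-sided, at a Benjamini-Hochberg adjusted p of 0.05 across them. Between libraries of 1 line the mean chi-square over genes was 1.19 to 1.67, above sampling noise, so none was merged. The code was tested on simulated data. Members and lists were chosen with earlier results of these data known. Named genes are the members, the related kinases and up to 3 genes per list with the smallest limma F-test p, and some genes that this rule names are not reported here. Figures used Python 3.11.15 with matplotlib 3.10.9.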

Additional observations from a re-analysis of the deposited data

Results flagged for a closer look

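Of the 36 named pathway genes, limma called 14 in opposite directions in SCC2 and in SCC1 against LLC1. Most of the 36 were picked by the smallest F-test p over the lines, which favours genes that differ between lines. The share of all genes tested with this pattern is not given here, so nothing is read from the number. Both comparisons with LLC1 share its libraries. The change of SCC2 against SCC1 is the difference of the changes against LLC1, so its call follows from theirs and adds no support. The log2 difference of SCC2 minus SCC1 was -1.22 for Add2, -0.6 for Plcg1, -0.38 for Pip4k2a, -0.45 for Hsp90aa1, -0.4 for Rack1, -0.87 for Ezr and -0.37 for Actg1, which were lower than LLC1 in SCC2 and higher in SCC1. It was 0.52 for Pip5k1c, 0.42 for Calm3, 0.69 for Phlpp1, 0.63 for Cdc42, 0.68 for Cavin3, 0.41 for Hmgn1 and 0.28 for Ppp1cb, which were higher than LLC1 in SCC2 and lower in SCC1. For Pip5k1c the call in SCC2 against LLC1 was lost in 10 of 15 alternatives, and for Add2 the sign there turned with quantile normalization. Add2 also passed the filter through SCC1 alone, where it is high.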

How the results depend on the processing

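The counts of called genes stayed within 1.5 times their values under all 15 alternatives. Under the filter 1.5 times each count is more than the 10519 genes tested, so there only a fall could have crossed that limit. For SCC2 against LLC1, 7112 genes were called, 6680 to 7103 with 1 library left out, and 7046 with the replicate number as a block. For SCC1 against LLC1 7376 genes were called, 6883 to 7323 with 1 library left out, and 7306 with the block. For SCC2 against SCC1 8031 genes were called, 7670 to 8029 with 1 library left out, and 7962 with the block. Over the alternatives that kept all libraries, the counts ran from 7046 to 7879 in SCC2 against LLC1. They ran from 7255 to 8157 in SCC1 against LLC1 and from 7944 to 8849 in SCC2 against SCC1. Samples with the same number did not deviate together (correlations of -0.068 to 0.089), so the numbers were not taken to pair them. Of 270 log2 changes of members, 255 moved by less than 1 SD and 0 changed sign after a call. Of 1620 values for 36 named pathway genes, 47 lost their call, 7 gained one and 1 turned: Add2 in SCC2 against LLC1 had 0.0218 with quantile normalization (adjusted p = 0.723), and the cause was not tested. Depth limits Prkcz in SCC1, where 4 fragments were counted.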

Other observations

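Some pathway genes under the filter of 1 FPKM, chosen after their values were seen, also separated the lines. Plcb1, a phospholipase C that answers to G proteins, had 0.455, 0.522 and 0.501 FPKM in SCC2 libraries, 0, 0.00522 and 0.0053 FPKM in SCC1 libraries and 0.137, 0.144 and 0.161 FPKM in LLC1 libraries, from 562, 4 and 164 fragments in the 3 lines. Prr5, a subunit of the mTOR complex that primes protein kinase C, had 0.0293 ± 0.0134 FPKM in SCC2, 0.587 ± 0.0888 FPKM in SCC1 and 0.446 ± 0.0202 FPKM in LLC1. SCC1 was thus the low line for Plcb1, as for Prkcz, Basp1 and Prkd1, and SCC2 the low line for Prr5, as for Prkcb.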
